A study of Homo sapiens with 2 samples.

Results

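Collagen genes and a small set of stromal marker genes were examined in Tu212 cells, a line of epithelial origin that stands in for squamous carcinoma of the head and neck. The set held every protein-coding gene whose symbol has the collagen form, a type number followed by a chain number, which gave 44 genes. To these were added 6 genes used as markers of fibroblasts and pericytes, DCN, LUM, PDGFRB, PDGFRA, MFAP5 and FAP. The 50 genes came from a deposited table of 58302 rows, of which 19817 were protein-coding, and each stood on 1 row. Polyadenylated RNA was sequenced from 1 library of cells given the pEZ vector alone and 1 library of cells given a pEZ plasmid that encodes PRMT5, an arginine methyltransferase, both for 48 h. The labels name no other genotype or agent in either group, and neither the number of cultures behind a library nor the share of cells that took up the plasmid is given in the sources used here. The question behind the comparison was which transcripts differ on PRMT5 overexpression.

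Gene counts summed to 14119997 reads in the vector control and to 19908258, or 1.41 times as many, with PRMT5 overexpression. With 1 library per group no difference below has a replicate check, no test was run, and the values below are those of a pair of libraries, not of the condition. Ratios are log2 of PRMT5 overexpression over vector control after scaling by library size and composition, and intervals are 95% Clopper-Pearson intervals, which cover counting error only. PRMT5 itself had 2068 reads in the vector control and 5770 in the other library, a log2 ratio of 1.01. A gene is called measured once either library holds 10 or more of its reads, as was so for 17777 genes.

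Collagens are secreted or membrane-bound proteins whose chains wind into a triple helix. Fibrillar collagens give connective tissue its tensile strength and are made mainly by fibroblasts, network-forming type IV collagens build the basement membrane, and types VII and XVII anchor squamous epithelium to the tissue beneath it. A squamous carcinoma line is therefore known for the epithelial collagens, while decorin, lumican and the PDGF receptors mark the stromal cells that a pure culture of such a line lacks.

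Squamous epithelial markers were well read in both libraries. All 10 of the markers listed for that cell type were measured, and KRT5, the basal cell keratin, had 65233 and 100083 reads in the vector control and the PRMT5 overexpression library. Of the 50 collagen and stromal genes, 18 had a mean of 50 or more reads over both libraries and are called well read, and all 18 were collagens. Another 14 genes, of which 11 were collagens, were measured with a mean under 50 reads. A further 10 genes had between 1 and 9 reads in their better-read library, and 8 genes had 0 reads in both. These 8 were COL4A3, COL8A1, COL9A1, COL10A1, COL15A1, COL19A1, COL25A1 and FAP. A count of 0 allows up to 0.210 CPM (reads scaled by library size and composition) in the vector control and 0.152 CPM in the other library. All collagens together made up 0.328% of vector control reads and 0.333% of reads with PRMT5 overexpression.

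**Figure D1:**
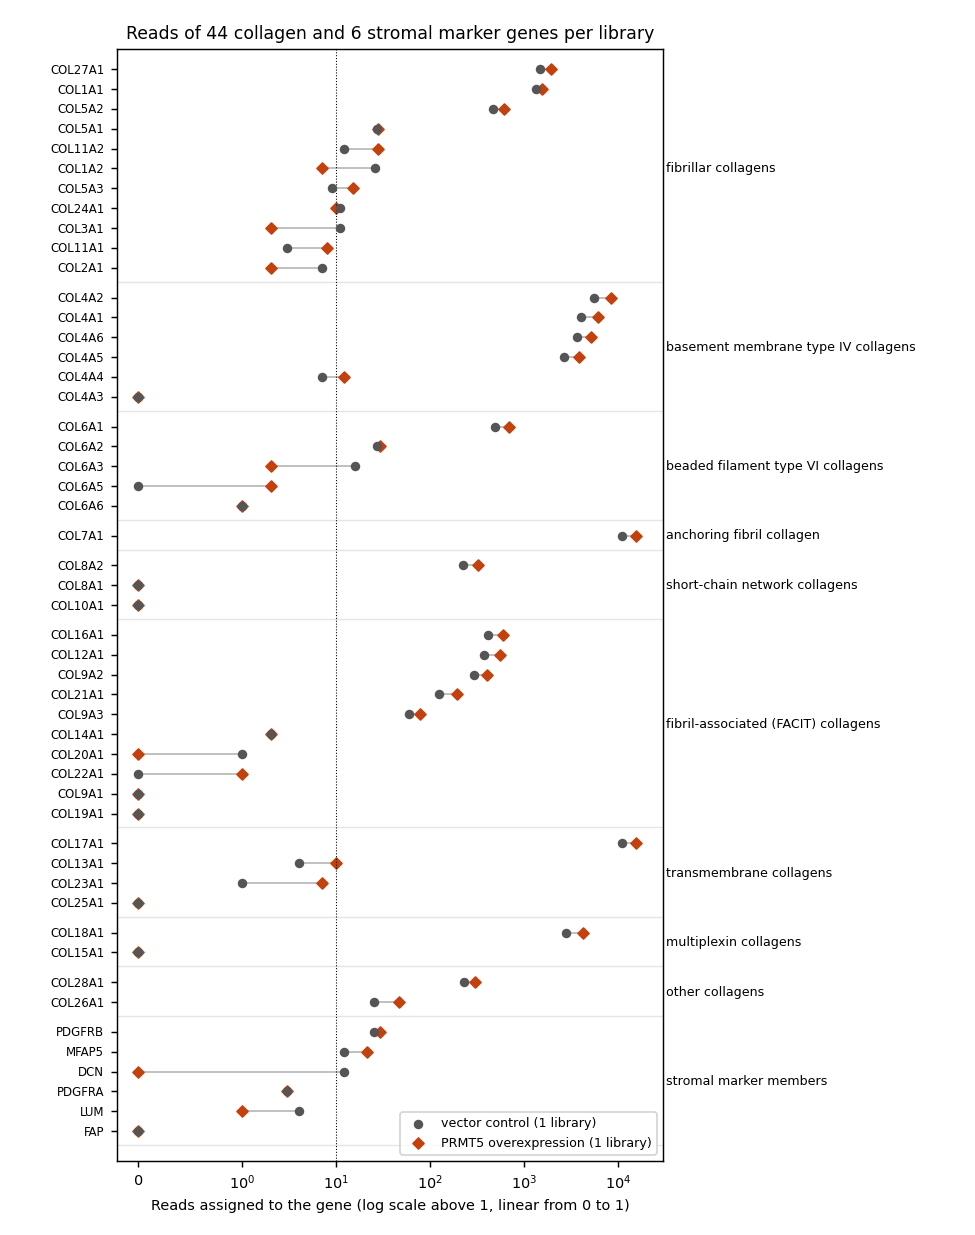
Reads assigned to each of the 44 collagen and 6 stromal marker genes (x axis, log scale above 1 read) in the vector control (circles) and the PRMT5 overexpression library (diamonds), grouped by collagen class, with a dotted line at 10 reads. COL7A1 and COL17A1 have at least 10904 reads in both libraries, while each of the 6 stromal markers has under 30.

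The best-read collagens were those of the squamous epithelial anchoring complex. COL17A1, a transmembrane collagen of the hemidesmosome, had 11023 reads in the vector control and 15557 in the PRMT5 overexpression library, or 773 and 789 CPM. The log2 ratio of COL17A1 was 0.03 (interval -0.01 to 0.07). COL7A1, which forms the anchoring fibrils below the basement membrane, had 10904 and 15509 reads, or 765 and 787 CPM. The log2 ratio of COL7A1 was 0.04 (interval 0.01 to 0.08), and 0.01 when libraries were scaled by total counts only. The levels of these 2 genes in the libraries thus differed by under 3%. In GRCh38, as the table gives it, COL17A1 (ENSG00000065618) spans bases 104031286 to 104086002 of chromosome 10 and COL7A1 (ENSG00000114270) bases 48564073 to 48595267 of chromosome 3, both on the minus strand.

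Stretches upstream of both genes are shown because these 2 loci carried the most collagen reads. They were taken from RefSeq promoter windows (GRCh38.p14), limited to bases upstream of the RefSeq start that lie outside every GENCODE release 29 exon and outside the span that the table gives the gene, and are written 5′ to 3′ on the strand of the gene. Capitals mark the letters GGGCGG (GC box), CCAAT and TATAAA on either strand.
COL17A1, chr10:104086003-104086130, minus strand: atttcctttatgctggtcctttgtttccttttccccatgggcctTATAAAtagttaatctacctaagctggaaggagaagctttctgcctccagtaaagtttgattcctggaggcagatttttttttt
COL7A1, chr3:48595330-48595579, minus strand: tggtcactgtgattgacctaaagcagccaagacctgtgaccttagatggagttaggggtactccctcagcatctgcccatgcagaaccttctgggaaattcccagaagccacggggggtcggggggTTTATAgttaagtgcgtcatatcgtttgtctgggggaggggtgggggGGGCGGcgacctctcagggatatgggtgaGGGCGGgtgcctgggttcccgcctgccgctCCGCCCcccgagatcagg
The COL17A1 stretch of 128 bases had a GC content of 39.1%, 0 CpGs, 1 TATAAA match, 0 CCAAT matches and 0 GC boxes. It is the part of the COL17A1 window of 250 bases (chr10:104085881-104086130) that lies farthest from the start. The whole window had a GC content of 40.4%, 1 CpG, 1 TATAAA match, 1 CCAAT match and 0 GC boxes. The COL7A1 stretch of 250 bases had a GC content of 60.8%, 11 CpGs, 3 GC boxes, 1 TATAAA match and 0 CCAAT matches. Among 35116 RefSeq promoter windows of 250 bases just upstream of the start, 42.6% held GGGCGG, 32% CCAAT and 10.7% TATAAA, and in windows of 128 bases the shares were 34.8%, 21.3% and 5.93%. The windows of 128 bases abut the start, which the COL17A1 stretch does not, so the regions differ. The letters TGANTCA, to which AP-1 factors are known to bind, occurred in 0 places of either stretch and in 6.57% of the windows of 250 bases and 3.54% of those of 128 bases.

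The type IV collagens of the basement membrane formed gene pairs, 2 of them well read and 1 nearly unread. COL4A1 and COL4A2 encode the chains of the ubiquitous type IV trimer. COL4A1 had 4031 reads in the vector control and 6113 in the PRMT5 overexpression library (log2 ratio 0.13, interval 0.08 to 0.19). COL4A2 had 5568 and 8469 reads (log2 ratio 0.14, interval 0.09 to 0.19). Both were about 1.10-fold higher in the PRMT5 overexpression library, and both intervals lay above 0. COL4A5 and COL4A6 encode the chains of a trimer found in the basement membrane of skin. COL4A5 had 2660 and 3803 reads (log2 ratio 0.05), and COL4A6 had 3690 and 5195 reads (log2 ratio 0.03), with intervals that included 0. COL4A3 and COL4A4, whose chains are known from the kidney glomerulus, had 0 and 0 reads and 7 and 12 reads. Of the 6 genes of this class, 5 were measured, with log2 ratios from 0.03 to 0.28 and a median of 0.13. The 0.28 was that of COL4A4 (interval -1.15 to 1.89), which counted as measured through its PRMT5 overexpression reads alone. The 4 well-read genes ran from 0.03 to 0.14, with a median of 0.09, though COL4A6 was just below 0 when scaled by total counts only. The summed reads of the class gave a log2 ratio of 0.10 (interval 0.07 to 0.13). The 10 squamous epithelial markers gave the same summed ratio, 0.10 (interval 0.09 to 0.11), with a median of 0.13. Of 4003 protein-coding genes averaging at least 1000 reads, 736 were at or above COL4A1 and 710 at or above COL4A2.

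In the table COL4A1 spans bases 110148963 to 110307149 of chromosome 13 and COL4A2 bases 110305812 to 110513027, so their spans overlap. By GENCODE release 29, COL4A1 lies on the minus strand and COL4A2 on the plus strand. Each of these pairs is arranged head to head, so that both genes start near each other and point away. By the RefSeq starts, 126 bases lie between COL4A1 and COL4A2 on chromosome 13, 379 bases between COL4A5 and the nearer start of COL4A6 on chromosome X, and 418 bases between COL4A3 and COL4A4 on chromosome 2. The 126 bases between COL4A1 and COL4A2 had a GC content of 80.2%, 20 CpGs, 1 GC box and 1 CCAAT match, where 34.6% and 21.1% of windows of 126 bases held these letters. Exons of GENCODE release 29 cover all but 2 of these bases. A stretch from a read pair and 1 from the nearly unread pair are set side by side for comparison, with capitals as above.
COL4A5, chrX:108439588-108439837, plus strand: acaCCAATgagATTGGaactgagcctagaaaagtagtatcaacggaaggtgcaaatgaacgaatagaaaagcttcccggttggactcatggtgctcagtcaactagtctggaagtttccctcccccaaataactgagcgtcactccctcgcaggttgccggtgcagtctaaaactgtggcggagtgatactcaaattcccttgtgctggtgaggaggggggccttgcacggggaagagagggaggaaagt
COL4A4, chr2:227164237-227164395, minus strand: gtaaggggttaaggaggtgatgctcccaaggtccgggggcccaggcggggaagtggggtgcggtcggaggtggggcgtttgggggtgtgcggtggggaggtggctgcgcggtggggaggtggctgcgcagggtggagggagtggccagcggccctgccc
The COL4A5 stretch of 250 bases had a GC content of 51.2%, 8 CpGs, 2 CCAAT matches and 0 GC boxes. The COL4A4 stretch of 159 bases had a GC content of 73.0%, 10 CpGs and 0 matches to either set of letters, where 37.5% of windows of 159 bases held GGGCGG and 24.3% CCAAT. Those windows abut the start, which this stretch does not. The whole COL4A4 window of 250 bases had 20 CpGs and 0 matches to either. The window of its partner COL4A3 had 17 CpGs, 2 GC boxes and 0 CCAAT matches. That of COL4A6, partner of COL4A5, had 7 CpGs, 0 GC boxes and 3 CCAAT matches at the nearer start. A match is only a run of letters, and its absence from a window says nothing of a factor.

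Promoter entries were found in the RefSeq table for 34 of the 50 genes. Windows of the well-read genes (18 entries of 14 genes) had a median GC content of 61.0% and a median of 11.5 CpGs. Those of genes with a mean under 50, genes at 0 included (29 entries of 20 genes), had medians of 64.0% and 16 CpGs, and those of genes with 0 reads in both libraries (9 entries of 6 genes) had 48.4% and 6. The CpG counts of the well-read genes ran from 1 to 40 and those of the genes at 0 from 1 to 38, so the ranges overlapped over nearly their whole extent. All RefSeq windows had medians of 58.0% and 11.

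Fibrillar collagens were represented by 3 well-read genes, COL1A1, COL27A1 and COL5A2, each with a log2 ratio below 0. COL1A1, the major chain of type I collagen, had 1321 reads in the vector control and 1557 in the PRMT5 overexpression library, or 92.6 and 79.0 CPM. It was 1.17-fold lower in the PRMT5 overexpression library (log2 ratio -0.23, interval -0.34 to -0.12). COL1A1 (ENSG00000108821, chromosome 17, 50183289 to 50201632, minus strand) had the lowest ratio of the 18 well-read collagens and the only interval below 0, joined by that of COL27A1 under total counts. Of 4003 protein-coding genes averaging at least 1000 reads, 241 had a ratio at or below that of COL1A1.

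COL27A1, a fibrillar collagen known from cartilage, had 1487 and 1930 reads (log2 ratio -0.09, interval -0.19 to 0.01). COL5A2, a chain of the type V collagen that starts fibril assembly, had 469 and 610 reads (log2 ratio -0.09, interval -0.26 to 0.09). Neither interval left out 0. Type V partner chains were sparse, with 27 and 28 reads for COL5A1 and 9 and 15 for COL5A3. COL11A2, a type XI chain, had 12 and 28 reads, and its log2 ratio of 0.72 had an interval of -0.27 to 1.87. COL24A1 had 11 and 10 reads, COL11A1 3 and 8, and COL2A1, the cartilage collagen, 7 and 2. Of 11 fibrillar genes, 9 were measured, 2 of them above 0 and 7 below, with a median log2 ratio of -0.23. The summed fibrillar reads gave a log2 ratio of -0.16 (interval -0.22 to -0.09), and COL1A1, COL27A1 and COL5A2 held nearly all of these reads.

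The fibrillar chains COL1A2 and COL3A1 were lower by more than 2-fold, both on few reads, where 1.94% of all measured genes were at least 2-fold lower. COL1A2, the partner chain of COL1A1 in type I collagen, had 26 reads in the vector control and 7 in the deeper PRMT5 overexpression library. It was 5.13-fold lower in the PRMT5 overexpression library by CPM without the prior count (log2 ratio -2.18 with it, interval -3.81 to -1.12). COL3A1, a collagen of extensible tissues, had 11 and 2 reads (log2 ratio -2.37, interval -6.14 to -0.73). The third collagen past 2-fold was COL6A3, with 16 and 2 reads (log2 ratio -2.88, interval -6.63 to -1.38).

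Type VI collagen forms beaded filaments around cells from chains of COL6A1, COL6A2 and a longer chain such as COL6A3. COL6A1 was well read, at 492 and 689 reads (log2 ratio 0.02, interval -0.15 to 0.19). COL6A2, which lies beside it on chromosome 21, had 27 and 29 reads (log2 ratio -0.35, interval -1.17 to 0.45). COL6A5 had 0 and 2 reads and COL6A6 had 1 in each library.

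The fibril-associated collagens, which sit on the surface of fibrils, differed little between the libraries. COL16A1 had 407 and 598 reads, COL12A1 378 and 559, COL9A2 289 and 399, COL21A1 123 and 194, and COL9A3 60 and 78. Their log2 ratios ran from -0.09 for COL9A3 to 0.19 for COL21A1, all 5 intervals included 0, and the median was 0.09. COL9A3 shares 45 exon bases with TCFL5, and the sum of both genes was at -0.04. TCFL5 had 698 and 942 reads, so that sum mainly reflects TCFL5. COL14A1 had 2 reads in each library, COL20A1 1 and 0, and COL22A1 0 and 1.

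Of the remaining collagens, only COL18A1 had an interval away from 0. COL18A1, a basement membrane proteoglycan collagen whose C-terminal fragment is endostatin, had 2768 and 4210 reads (log2 ratio 0.14, interval 0.07 to 0.21). It shares exon bases with SLC19A1, and its log2 ratio was 0.13 once the 2 genes were summed. COL8A2, a short-chain network collagen, had 225 and 326 reads (log2 ratio 0.07). COL28A1 had 227 and 296 reads (log2 ratio -0.08). COL26A1 had 25 and 47 reads (log2 ratio 0.43, interval -0.29 to 1.21). The transmembrane collagens other than COL17A1 were sparse, with 4 and 10 reads for COL13A1 and 1 and 7 for COL23A1. The log2 ratio of COL13A1 was 0.74, with an interval of -0.94 to 2.98.

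Over all classes, 29 of the 44 collagens were measured, 17 with log2 ratios above 0 and 12 below, though COL4A6 and COL6A1 were just under 0 with total counts only and COL9A2 just above it with scaling factors from all genes. Their median was 0.03 and their mean -0.20, which differ in sign because 3 sparse genes lay far below 0. The median over all measured genes was 0.00, and over measured protein-coding genes it was -0.01. Of the 32 measured genes of the set, 0 were at least 2-fold higher in the PRMT5 overexpression library, where 2.9% of all measured genes were. In the other direction 4 of the 32 were at least 2-fold lower, COL1A2, COL3A1, COL6A3 and DCN, where 1.94% of all measured genes were. All 4 averaged under 50 reads, as 14 of the 32 did. Those 4 of 14 stand beside 6.8% of measured protein-coding genes of that depth, and the 0 of 14 higher beside 9.12%. All 4 counted as measured through their vector control reads alone, so the same reads admitted them and set them lower. The background genes were admitted by the same rule, but neither 4 of 32 nor 4 of 14 is read as an excess. The count of 4 became 0 when 50 reads were required in at least 1 library, and also on deposited FPKM with a pseudocount of 1. Past 1.5-fold, COL11A2 and COL13A1 were higher, 2 of 32 beside 7.06% of all measured genes. The same 4 genes were lower at that threshold, beside 5.33%.

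All 18 well-read collagens lay within 1.5-fold, with log2 ratios from -0.23 to 0.19 and a median of 0.04. In all, 4 of their intervals lay above 0, those of COL4A1, COL4A2, COL7A1 and COL18A1, and that of COL1A1 lay below. These 4 and 1 of 18 stand beside 16.7% of protein-coding genes of that depth with an interval above 0 and 18.2% with one below, so neither count singles out the collagens. With total counts only, 3 intervals lay above 0, without that of COL7A1, and 2 below, those of COL1A1 and COL27A1. Among protein-coding genes averaging at least 50 reads, 2.07% were past 1.5-fold upwards and 2.47% downwards, so 0 of 18 in either direction is near the background.

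**Figure D2:**
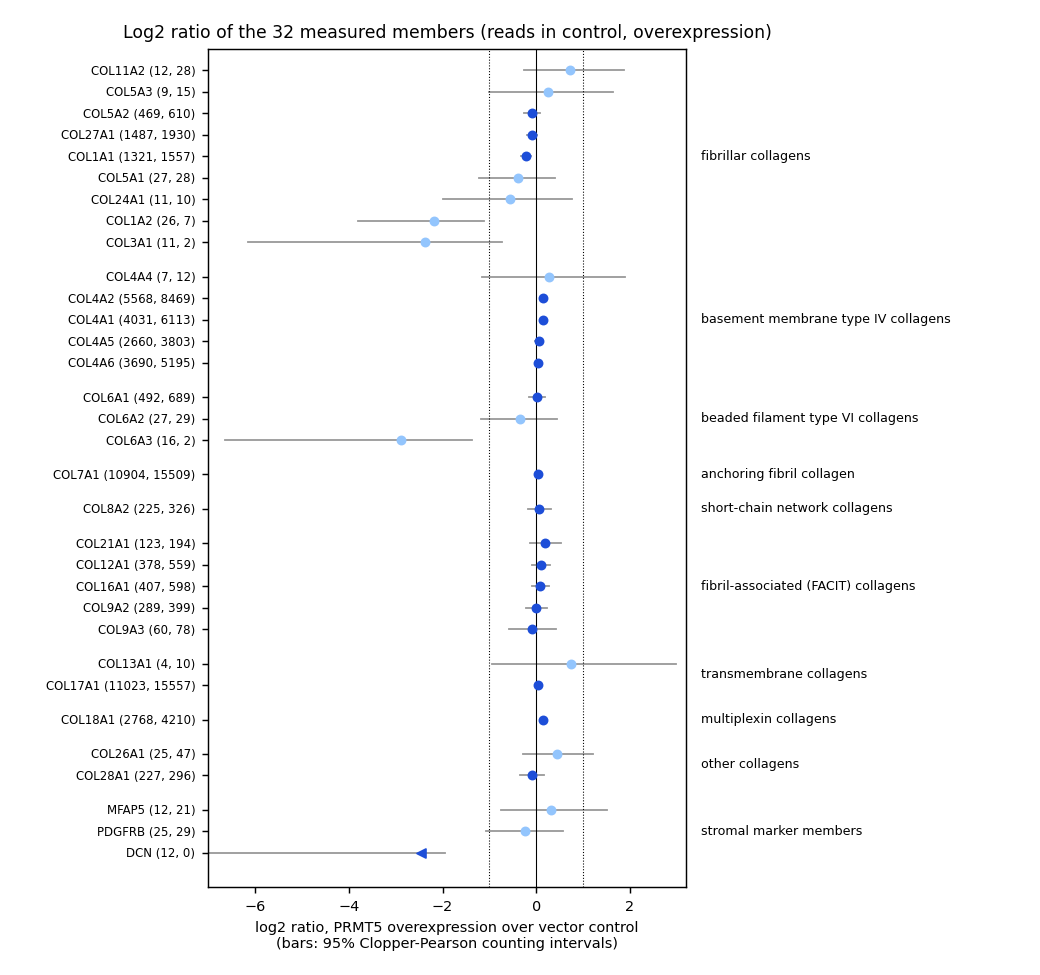
Log2 ratio of PRMT5 overexpression over vector control (x axis) for the 32 measured genes, with reads in both libraries in parentheses, 95% counting intervals as bars, dark points for a mean of 50 or more reads and light points below. DCN is drawn as a triangle at its ratio against 3 reads with an interval open to the left, and dotted lines mark 2-fold. The 18 dark points lie between -0.23 and 0.19, and those past 2-fold rest on at most 26 reads.

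The stromal markers were sparse in both libraries. PDGFRB, the PDGF receptor of pericytes and fibroblasts, had 25 reads in the vector control and 29 in the PRMT5 overexpression library. MFAP5, a protein of elastic microfibrils, had 12 and 21. DCN, the small proteoglycan decorin that binds type I collagen, had 12 and 0. LUM, the related proteoglycan lumican, had 4 and 1, PDGFRA 3 and 3, and the fibroblast protease gene FAP 0 and 0. DCN (ENSG00000011465, chromosome 12, 91140484 to 91183123, minus strand) was 5.53-fold lower in the PRMT5 overexpression library when 3 reads are put in place of the 0. The interval of its log2 ratio ended at -1.94, which allows a smaller difference than that. PDGFRB and MFAP5 had log2 ratios of -0.24 and 0.32, and both intervals included 0. The median of the 3 measured markers was -0.24, also with DCN set against 3 reads. The 6 markers together had 56 and 54 reads (log2 ratio -0.52, interval -1.09 to 0.05). In bulk RNA, fewer cells of a type and less RNA per cell cannot be told apart.

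Other markers of stromal and blood cells were at similar depth or far above it. Of 13 further fibroblast and mesenchymal markers, 7 were measured, 3 with log2 ratios above 0 and 4 below. VIM had 120 and 128 reads (log2 ratio -0.37, interval -0.74 to -0.0025) and FN1 68 and 74 (log2 ratio -0.34). ACTA2 had 65 and 98 reads (log2 ratio 0.12) and TAGLN 35 and 47 (log2 ratio -0.04). PDPN, TWIST1 and FBN1 were at 0.52, 0.20 and -0.01. TCF21, TWIST2 and PRRX1 had 0 reads in both libraries, THY1 had 3 and 1, POSTN 3 and 0, and the matrix protein SPARC 8 and 2. The list summed to 95.9 and 111 CPM, most of it from PDPN with 539 and 1066 reads, FBN1 with 269 and 369 and TWIST1 with 257 and 409, and its median log2 ratio was -0.01. That median ran from -0.19, with 1 or more reads required, to 0.15, in sums with exon-sharing genes, so it has no settled direction. The 7 leukocyte markers summed to 22.2 and 17.1 CPM, nearly all from CD68, with 286 and 320 reads. The log2 ratio of CD68 was -0.30, but 0.32 in a sum with the genes that share its exon bases, so the direction of the leukocyte sum is not settled. ITGAM had 12 and 3 reads (log2 ratio -2.09, interval -4.93 to -0.58) and counted as measured through its vector control reads alone. PTPRC, the pan-leukocyte marker, had 0 and 4 reads, and CD3E 6 and 0. The 6 endothelial markers summed to 6.03 and 4.57 CPM, with 67 and 69 reads for VWF, 17 and 19 for ERG, 1 and 0 for PECAM1, and CDH5 and KDR at 0. The 6 pericyte markers summed to 220 and 228 CPM, mainly from NOTCH3 and CSPG4, while KCNJ8 had 2 reads in each library and ABCC9 0 and 1. A list sum carried by a few genes, while other genes of the list are near 0, does not show that cells of that type were present. The part of other cells in the lower reads of COL1A2, COL3A1, COL6A3 and DCN was not tested.

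**Figure D3:**
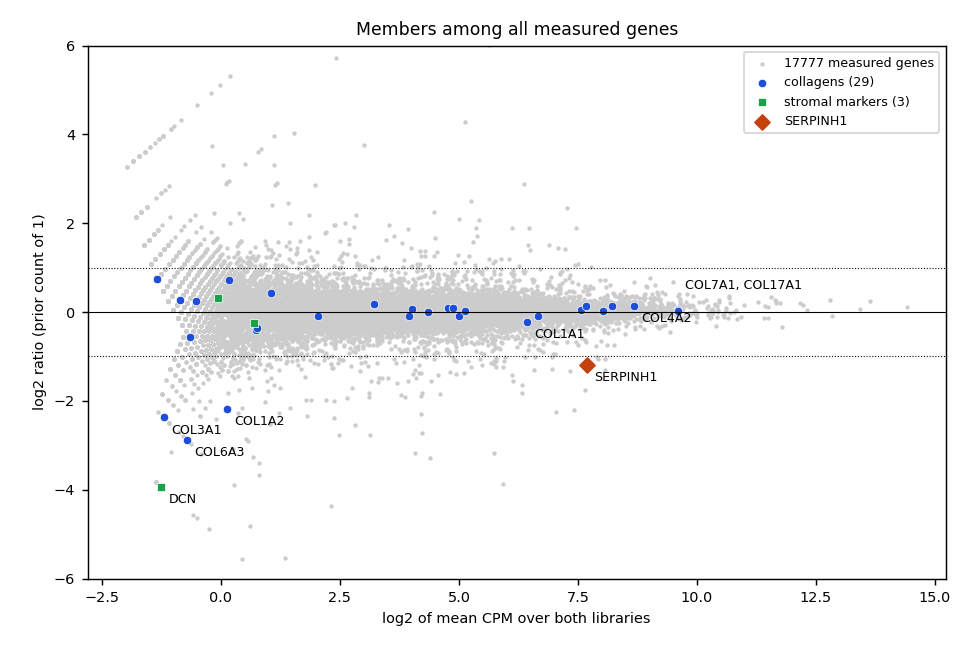
Log2 ratio (y axis) against log2 of the mean CPM over both libraries (x axis) for the 17777 measured genes in grey, with 29 collagens, 3 stromal markers and the collagen chaperone gene SERPINH1 marked and dotted lines at 2-fold. In all, 7 genes fall outside the plotted range, and the position of DCN, which has 0 reads in 1 library, depends on the prior count. Marked genes past 2-fold sit at the left, where grey points also spread widely, apart from SERPINH1 at -1.18.

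Chains that assemble into 1 type of collagen were read very unequally. Levels of different genes were compared per length, as deposited FPKM and, as a second scale, as CPM per kilobase of merged exons in GENCODE release 29. COL1A1 stood at 7.21 and 6.03 FPKM and COL1A2 at 0.111 and 0.0213. That made COL1A1 64.7-fold higher in the vector control and 283-fold higher in the PRMT5 overexpression library in FPKM, or 57.7-fold and 253-fold per merged exon length. Only 26 and 7 reads of COL1A2 stand behind these ratios. COL5A2 was 27.8-fold and 34.8-fold above COL5A1 in FPKM, and COL6A1 was 19.9-fold and 26.0-fold above COL6A2. COL9A2 was 6.55-fold and 6.96-fold above COL9A3, with COL9A1 at 0, and COL8A2 stood at 1.43 and 1.47 FPKM beside COL8A1 at 0.

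The type IV pairs were near balance. COL4A2 was 1.27-fold above COL4A1 in FPKM in both libraries, and 1.06-fold per merged exon length in both. COL4A6 was 1.31-fold and 1.29-fold above COL4A5 in FPKM, and 1.77-fold and 1.75-fold per merged exon length. The type IV ratios moved little between libraries, and the size of the imbalance for COL4A6 depended on the length used.

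**Figure D4:**
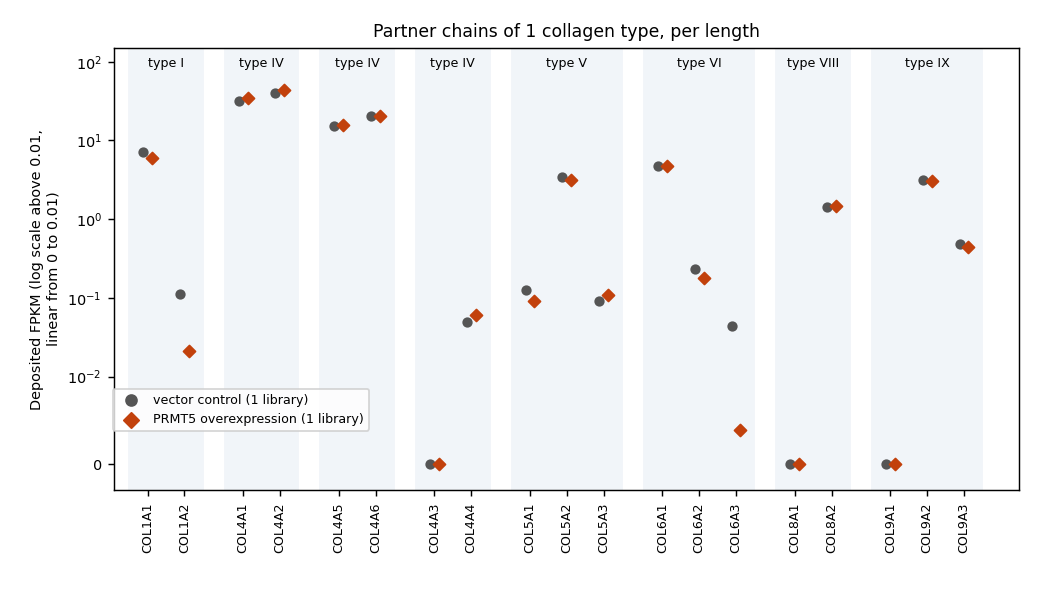
Deposited FPKM (y axis, log scale above 0.01) of chains that belong to 1 collagen type, in the vector control (circles) and the PRMT5 overexpression library (diamonds). The chains of the 2 read type IV pairs lie within 1.31-fold of their partners, while COL1A1, COL5A2 and COL6A1 lie over 19-fold above a partner.

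COL17A1 and COL7A1 ranked first and second among the well-read collagens on both length scales, at 105 and 105 FPKM and at 57.5 and 58.0 FPKM. The next 4 were COL4A2, COL4A1, COL4A6 and COL18A1 by FPKM, and COL4A6, COL18A1, COL4A2 and COL4A1 per merged exon length, so the order within these 4 was not settled. COL4A5, COL1A1, COL27A1 and COL6A1 came next, in this order on both scales. COL21A1 and COL9A3 were last, at 0.804 and 0.900 FPKM and at 0.477 and 0.440 FPKM.

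The genes that hydroxylate, fold and export procollagen differed little between the libraries, with 1 exception past 2-fold. Of 22 such genes, 21 were measured, 14 with log2 ratios above 0 and 7 below, and the median was 0.06. None was at least 2-fold higher and 1 was at least 2-fold lower. SERPINH1 encodes HSP47, the chaperone of the endoplasmic reticulum that binds the procollagen triple helix. It had 4078 reads in the vector control and 2484 in the PRMT5 overexpression library, or 286 and 126 CPM, although the second library was deeper. SERPINH1 was 2.27-fold lower in the PRMT5 overexpression library (log2 ratio -1.18, interval -1.25 to -1.11). Of 4003 protein-coding genes averaging at least 1000 reads, 12 had a ratio that low or lower, SERPINH1 included. The gene (ENSG00000149257) lies on the plus strand of chromosome 11 from 75562056 to 75572783, shares no exon base with another measured gene, and had 1.72% of its tested sequence stretches in transcripts of other genes.

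The other enzymes differed by smaller amounts. PLOD1, a lysyl hydroxylase, had 3001 and 3340 reads (log2 ratio -0.31, interval -0.38 to -0.24). Its paralogs PLOD2 and PLOD3 were at 0.05 and 0.11, and PLOD3 was at -0.09 when summed with ZNHIT1, with which it shares exon bases. ZNHIT1 had 2435 and 2848 reads, more than the 1559 and 2323 of PLOD3. The prolyl 4-hydroxylase catalytic subunits P4HA1 and P4HA2 were at -0.20 and -0.18, with both intervals below 0, while their shared partner P4HB had 5711 and 8713 reads and was at 0.14. PPIB, the prolyl isomerase cyclophilin B, had 5580 and 8387 reads and was at 0.12. P3H4, a non-enzymatic partner of the collagen hydroxylases, had 616 and 1086 reads and was at 0.35, with an interval of 0.21 to 0.50. The COPII coat gene SEC24D, needed for procollagen export, was at 0.28, and MIA2, which loads large cargo into COPII carriers, at -0.27.

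Genes of propeptide cleavage and cross-linking lay within 1.5-fold. Of 13 genes, 9 were measured, 3 above 0 and 6 below, with log2 ratios from -0.37 to 0.32 and a median of -0.05. PCOLCE, an enhancer of propeptide cleavage, had 581 and 776 reads and was at -0.05, and the lysyl oxidase gene LOX had 413 and 508 and was at -0.17. TLL1, ADAMTS14 and LOXL4 had 0 reads in both libraries.

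Among 11 collagen receptors, 5 were measured, with a median log2 ratio of -0.21. ITGA2, the collagen-binding integrin subunit of epithelia, had 6895 and 8239 reads (log2 ratio -0.21, interval -0.26 to -0.16). DDR1, a receptor tyrosine kinase activated by collagen, had 4363 and 4444 reads and was 1.36-fold lower in the PRMT5 overexpression library (log2 ratio -0.44, interval -0.50 to -0.38). ITGB1, the shared beta subunit, and MRC2, which takes up collagen, were at 0.05 and 0.12. ITGA1 had 61 and 54 reads (log2 ratio -0.63, interval -1.20 to -0.09), and shares 475 of its 18566 exon bases with PELO. The sum of the 2 genes was at -0.02, but PELO had 466 and 663 reads, so the sum mainly reflects PELO. DDR2, the receptor of mesenchymal cells, had 8 reads in each library, and ITGA11, the fibroblast integrin subunit, had 0. Across the 3 lists, 1 of 35 measured genes was at least 2-fold lower and 0 were higher, beside the 1.94% and 2.9% of all measured genes.

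**Figure D5:**
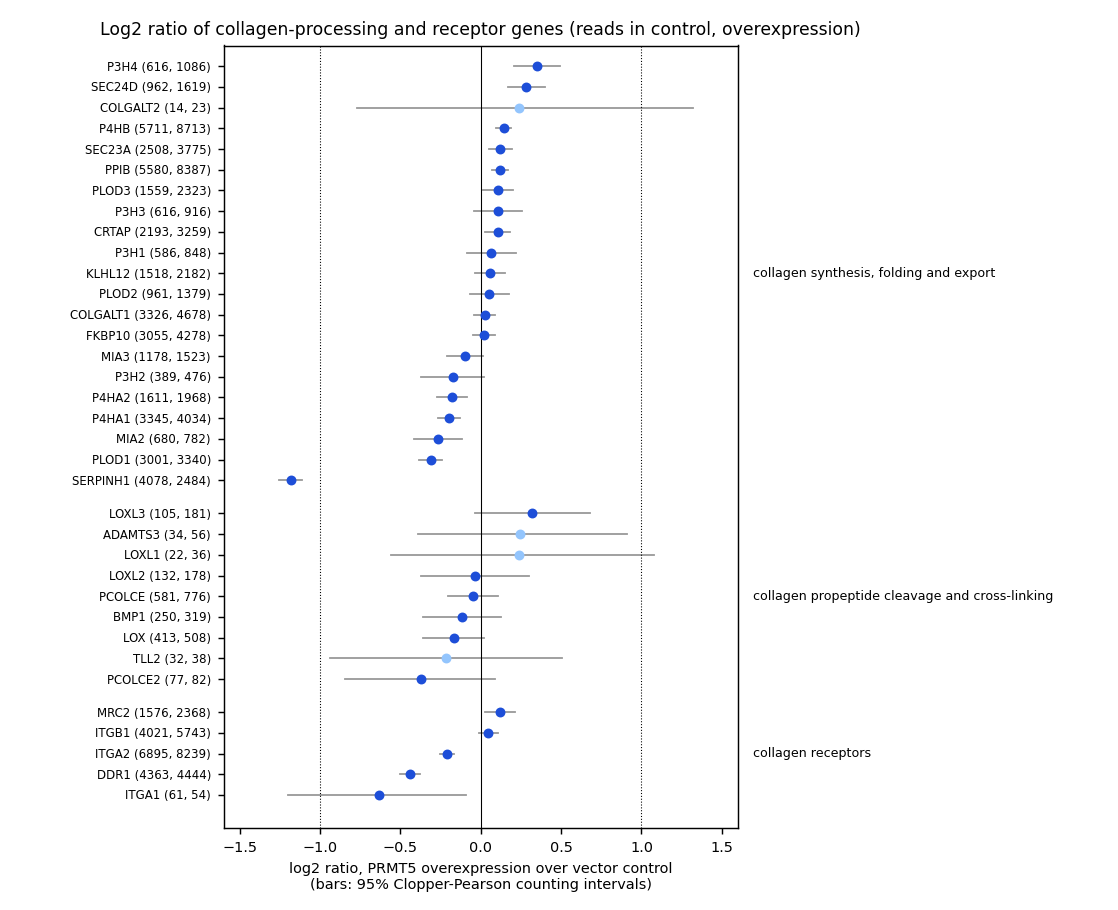
Log2 ratio of PRMT5 overexpression over vector control (x axis) for measured genes of procollagen folding and export, of propeptide cleavage and cross-linking, and of collagen reception, with reads in both libraries in parentheses, 95% counting intervals as bars and dotted lines at 2-fold. SERPINH1 lies at -1.18, and the others lie between -0.63 and 0.35.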

How the data were processed

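The raw counts and FPKM values per gene were used as deposited by the authors, and 0 per-sample columns were left unused. The tools HISAT2 2.1.0, StringTie 1.3.4b, CASAVA 1.8 and edgeR and the builds hg38 and GRCh38 come from the submitters' processing notes, which give no roles here. Strandedness was not given in the sources used here. In 100% of 11478 genes above 100 reads in each library, the authors' FPKM equalled, to within 1%, the count over the total and 1 fixed length. This length was 1.55 times the merged exon length at the median.

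Rows of 1 symbol were summed. TMM factors (edgeR 4.0.16, R 4.3.3) were computed over genes that reached 10 reads in a library, although the plan named all genes, and log2 ratios used a prior count of 1. A gene with 0 reads in 1 library was set against 3 reads. Exon-sharing genes, lengths and strands came from GENCODE release 29, where 40 of the 50 genes had the same start and end. Sequence sharing was the share of 50-base stretches, every 10 bases of the longest transcript, found in transcripts of genes that share no exon bases. The ratio and interval steps were tested on simulated data.

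The genes and all 20 lists were chosen with earlier results of these data known. Collagen and stromal genes measured were named with reads, well-read ones with ratios; of other lists, the best-read genes and those past 1.5-fold that averaged at least 50 reads were named first. The remaining names were added after their values were seen. Calculations used Python 3.11.15, numpy 2.4.6, pandas 2.3.3, scipy 1.17.1, matplotlib 3.10.9 and, for size factors, DESeq2 1.42.0.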

Additional observations from a re-analysis of the deposited data

How the results depend on the processing

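Of 266 recalculated ratios of 38 genes, 259 lay inside the counting interval of the reported value, and 5 changed sign, all near 0: COL4A6 and COL6A1 under total counts (-0.0021 and -0.0098) and under FPKM, and COL9A2 under TMM over all genes (0.02). The settings were prior counts of 0.1 and 5, DESeq2 size factors, total counts, TMM over all genes (added after the data were seen), deposited FPKM with a pseudocount of 1, and sums with exon-sharing genes. The 7 values outside were those of COL1A2, COL3A1, COL6A3, DCN, ITGA1 and PRMT5 under FPKM, and that of ITGA1 in its sum. All 4 genes called 2-fold lower are thus among them. Intervals of sparse genes are wide, so a value inside them says little of stability. The number of genes at least 2-fold higher, 0, became 2 with 1 or more reads in a library and 2 at a threshold of 1.5-fold. The number at least 2-fold lower, 4, became 7 with 1 or more reads, 0 with 50 or more, and 0 with FPKM, whose pseudocount shrinks low genes by construction. Under total counts, chosen for this count after the data were seen, 2 well-read collagens in place of 1 had an interval below 0, and 3 in place of 4 above. The mean was -0.203 over measured collagens (median 0.03) and -1.29 over stromal markers (median -0.24). The stromal mean used the DCN log2 ratio of -3.93, which rests on the prior count. Fibrillar medians were -0.0894 with FPKM and -0.0909 with 50 or more reads, the type IV median was 0.0189 with FPKM, and the receptor median was -0.0854 with FPKM, -0.0229 in sums with exon-sharing genes and -0.416 with 1 or more reads, against -0.23, 0.13 and -0.21. The cause of the moves was not tested. Of 117 recalculated medians and means over 13 lists, 109 stayed within the counting interval of the middle gene. Lists left with under 3 genes, such as the stromal markers at 50 or more reads, gave no value. Depth limits every statement on genes under 50 reads. No paired analysis was possible because there is 1 library in each group.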

Other observations

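The PDGF ligand genes PDGFA, PDGFC and PDGFB had more reads than either PDGF receptor gene, and PDGFD had fewer. PDGFA had 834 and 1132 reads in the vector control and the PRMT5 overexpression library, PDGFC 480 and 661, PDGFB 126 and 144, and PDGFD 2 in each. The log2 ratios of PDGFA, PDGFC and PDGFB were -0.03, -0.01 and -0.27, none past 1.5-fold. Small leucine-rich proteoglycans other than DCN and LUM were nearly absent from the reads, as 7 of 8 had 0 reads in both libraries and BGN, which encodes biglycan, had 6 and 5.

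Several rows named after collagens were not protein-coding and so stood outside the set. The pseudogene COL6A4P1 had 53 and 79 reads, with a log2 ratio of 0.11, which is more reads than the coding type VI genes COL6A2, COL6A3, COL6A5 and COL6A6 had in either library. COL4A2-AS1 had 5 and 8 reads, COL18A1-AS1 and COL18A1-AS2 had 1 and 0 each, and COL6A4P2, COL11A2P1, COL4A2-AS2 and COL5A1-AS1 had 0 in both.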
